A study of Homo sapiens with 8 samples.

Results

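The glycolysis and hypoxia response genes are 37 of the 61209 gene names in the count table, chosen by name as the enzymes of glycolysis, the carriers of glucose and lactate, and genes of oxygen sensing and the response to low oxygen. All 37 were found in the table and all 37 passed the filter on low counts. RNA was sequenced from H1 cells, an established line of human embryonic stem cells, with the genotype Msx1-P2A-tdTomato, in which the MSX1 gene also drives a red fluorescent protein. The study asked how FGF8 and FGF10, ligands of FGF receptors, change lateral plate mesoderm-like cells on the way to limb mesenchyme. There were 4 groups of 2 libraries: Pdgfra-positive and Pdgfra-low cells under FGF8+10, and Pdgfra-positive and Pdgfra-low cells under Mock.

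Every group had the same differentiation before treatment. On day 0 the medium held 4 agents, namely CHIR99021 (6 µM, an inhibitor of GSK3), BMP4 (40 ng/mL), Activin A (50 ng/mL) and FGF2 (10 ng/mL). From day 1, for 3 days, it held 60 ng/mL of BMP4 and 1 µM of CHIR99021. On day 4 pellets were formed from 25000 cells per well, with 500 ng/mL of each ligand in the FGF8+10 groups. The pellets were moved to larger plates on day 5 and kept for 3 more days, and Msx1-positive cells were sorted by Pdgfra on day 8. The labels give all libraries 1 protocol text and do not describe the Mock medium. The replicates are called biological, with no word on whether each was differentiated separately. The p-values below therefore measure only the spread between these libraries, all from 1 cell line.

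Glycolysis splits glucose into pyruvate in a chain of cytosolic enzymes, and lactate dehydrogenase and the monocarboxylate carriers turn pyruvate into lactate and move it out of the cell. When oxygen is low, prolyl hydroxylases no longer mark HIF alpha proteins for degradation, and HIF dimers bind short DNA motifs and raise the transcription of many glycolytic and hypoxia genes. HIF1A protein is set mainly by its stability, so its mRNA is not a measure of HIF activity, and mRNA levels are not a measure of glycolytic flux. Oxygen, lactate and glucose uptake were not among the values measured here.

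Depth was 47698561 to 64390444 counts per library. Levels are given as CPM, counts scaled to a common library size by TMM, a method that matches the bulk of genes between libraries. Fold changes, their standard errors (SE) and p-values come from edgeR's quasi-likelihood test over all 8 libraries, adjusted by Benjamini-Hochberg over the 22554 genes tested, and a gene is called where the adjusted p is below 0.05. PDGFRA followed the gates, with 712 and 716 CPM in FGF8+10 Pdgfra-positive and 279 and 292 CPM in FGF8+10 Pdgfra-low libraries, and 453 and 455 CPM in Mock Pdgfra-positive and 194 and 189 CPM in Mock Pdgfra-low libraries. PDGFRA was itself higher under FGF8+10 than under Mock in both populations, by log2 0.65 and 0.58, and MSX1 by 1.21 and 0.95. The gate came after the treatment, so the sorted cells of the treatments may differ in make-up, and in bulk RNA fewer cells of a type and less RNA per cell cannot be told apart. The 14 limb and lateral plate mesenchyme markers summed to 2055 to 2059 CPM in FGF8+10 Pdgfra-positive, 1609 to 1623 CPM in FGF8+10 Pdgfra-low, 1582 to 1596 CPM in Mock Pdgfra-positive and 1322 to 1323 CPM in Mock Pdgfra-low libraries, with HAND2 at 339 to 479 and PRRX1 at 142 to 274 CPM. Of 13 tested, 9 were higher and 2 lower under FGF8+10 than under Mock in Pdgfra-positive cells, and 6 were higher and 6 lower in Pdgfra-low cells. Over all genes tested, 25.8% were higher and 25.1% lower in Pdgfra-positive cells, and 27.9% and 27.7% in Pdgfra-low cells. FGF10 and ISL1 rose in both populations (log2 3.09 to 4.12), and TBX4 and PRRX2 fell in both (log2 -2.60 to -1.41).

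Members changed in both directions under FGF8+10. In Pdgfra-positive cells 9 members were higher and 18 lower than under Mock and 10 were not called, against 50.9% of all genes tested called (25.8% higher, 25.1% lower). In Pdgfra-low cells 14 were higher, 16 lower and 7 not called, against 55.7% of all genes (27.9% higher, 27.7% lower). The median log2 fold change of the members was -0.19 in Pdgfra-positive and -0.10 in Pdgfra-low cells, beside -0.01 and -0.02 over all genes tested. These counts depend on the scaling. With libraries scaled by total counts alone, the median of all genes moved to 0.16 in Pdgfra-positive and 0.15 in Pdgfra-low cells, 14 members were higher and 14 lower in Pdgfra-positive cells, and 19 were higher and 13 lower in Pdgfra-low cells. That scaling called 8164 genes higher and 3991 lower in Pdgfra-positive cells, where TMM called 5811 and 5658, and 8113 higher and 4672 lower in Pdgfra-low cells, where TMM called 6300 and 6256.

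**Figure D1:**
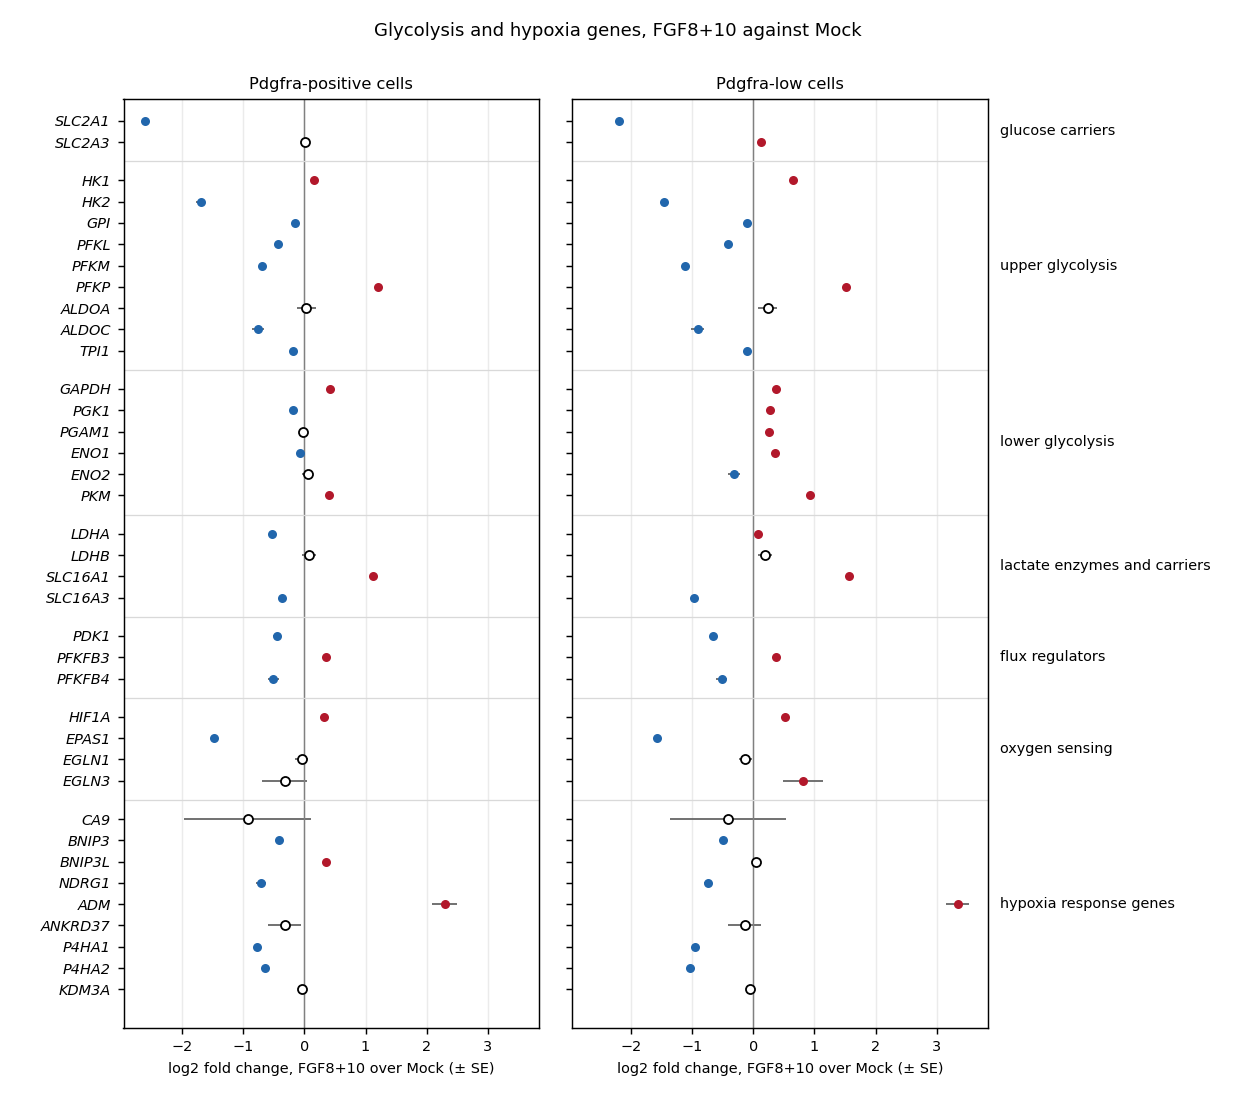
Log2 fold change of each of the 37 members, FGF8+10 over Mock, in Pdgfra-positive (left) and Pdgfra-low cells (right), with bars of 1 SE; red is called higher, blue called lower and open not called. SLC2A1, HK2 and EPAS1 lie furthest to the left and ADM, PFKP and SLC16A1 furthest to the right among called members in Pdgfra-positive cells.

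Of the 37, 15 were lower and 8 higher in both populations, where 19.1% of all genes tested were lower and 20% higher in both. The 15 were SLC2A1, HK2, GPI, PFKL, PFKM, ALDOC, TPI1, SLC16A3, PDK1, PFKFB4, EPAS1, BNIP3, NDRG1, P4HA1 and P4HA2. The 8 were HK1, PFKP, GAPDH, PKM, SLC16A1, PFKFB3, HIF1A and ADM. PGK1, ENO1 and LDHA were lower in Pdgfra-positive and higher in Pdgfra-low cells. In Pdgfra-positive cells 3 members rose and 3 fell at least 2-fold, where 7.29% of all genes tested rose and 9.83% fell as much, and in Pdgfra-low cells 3 rose and 5 fell, where 9.45% and 11.8% did. Those past 2-fold in either population were SLC2A1, HK2, PFKM, PFKP, SLC16A1, EPAS1, ADM and P4HA2.

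HIF dimers bind DNA at a core of ACGTG or GCGTG. To show what lies ahead of members on both sides, the 250 bases upstream of the start are printed for those past 2-fold that have a single start in the RefSeq table, from GRCh38.p14 and 5′ to 3′ on the gene's strand. The glucose carrier gene SLC2A1 (chr1:42958869-42959118, minus strand) and the collagen prolyl hydroxylase gene P4HA2 (chr5:132227092-132227341, minus strand) fell, as did EPAS1, which encodes HIF2 alpha (chr2:46297157-46297406, plus strand). The adrenomedullin gene ADM (chr11:10304823-10305072, plus strand) rose. Capitals mark a match to either core on either strand.
SLC2A1: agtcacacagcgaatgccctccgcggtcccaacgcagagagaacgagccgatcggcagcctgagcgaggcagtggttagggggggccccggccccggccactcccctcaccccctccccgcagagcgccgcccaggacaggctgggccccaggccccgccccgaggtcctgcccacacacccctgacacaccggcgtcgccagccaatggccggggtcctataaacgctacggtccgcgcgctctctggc
EPAS1: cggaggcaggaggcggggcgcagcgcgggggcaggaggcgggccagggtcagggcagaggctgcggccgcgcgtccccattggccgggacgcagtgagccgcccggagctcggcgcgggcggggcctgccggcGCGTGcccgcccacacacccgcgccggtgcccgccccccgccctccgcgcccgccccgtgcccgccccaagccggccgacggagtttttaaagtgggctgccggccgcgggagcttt
P4HA2: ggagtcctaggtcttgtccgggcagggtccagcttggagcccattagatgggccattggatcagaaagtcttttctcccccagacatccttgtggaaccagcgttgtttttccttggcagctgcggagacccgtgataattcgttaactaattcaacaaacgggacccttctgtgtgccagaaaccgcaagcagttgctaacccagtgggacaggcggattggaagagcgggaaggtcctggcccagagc
ADM: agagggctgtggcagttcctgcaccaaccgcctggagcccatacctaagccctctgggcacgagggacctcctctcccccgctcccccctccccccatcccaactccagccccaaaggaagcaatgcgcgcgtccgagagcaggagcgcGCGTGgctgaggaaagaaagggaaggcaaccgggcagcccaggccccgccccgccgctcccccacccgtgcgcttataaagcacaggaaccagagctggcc
The windows of SLC2A1 and P4HA2 hold 0 matches. EPAS1 has 1, whose first base lies 117 and whose last base 113 bases upstream of the start. ADM has 1, with its first base at 101 and its last at 97 bases upstream. Over all 35116 windows of this length in the table, 43.2% held a match to a core, and over the 61 windows of the 33 members found there 36 did (59.0%). Among windows of members called lower in Pdgfra-positive cells 19 of 31 held a match, and among those called higher 8 of 18. In Pdgfra-low cells the counts were 16 of 28 for members called lower and 12 of 24 for those called higher. Several windows can belong to 1 gene and overlap. A match is a description of letters, no binding was measured, and functional HIF sites can lie outside these windows.

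Glucose enters cells through facilitative carriers. SLC2A1, the widely used carrier GLUT1 (GRCh38 chromosome 1, 42925353 to 42958893), had 14.4 and 16.4 CPM in FGF8+10 Pdgfra-positive libraries against 93.4 and 94.2 CPM in Mock Pdgfra-positive libraries. In Pdgfra-low cells it had 62.5 and 62.1 CPM under FGF8+10 against 285 and 286 CPM under Mock. All 4 FGF8+10 libraries lay below all 4 Mock libraries, and the lowest level was in FGF8+10 Pdgfra-positive cells. It was 6.09-fold lower in Pdgfra-positive cells (log2 -2.61 ± 0.044 SE, edgeR adjusted p = 1.66e-40) and 4.58-fold lower in Pdgfra-low cells (log2 -2.20 ± 0.036, adjusted p = 7.45e-41). The effects of FGF8+10 differed by log2 -0.41 ± 0.057 between the populations (edgeR adjusted p = 1.48e-07), a deeper fall in Pdgfra-positive cells.

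SLC2A3, the high-affinity carrier GLUT3, differed far less. It had 69.4 and 68.7 CPM in FGF8+10 Pdgfra-positive and 68.6 and 69.1 CPM in Mock Pdgfra-positive libraries, which overlap. Pdgfra-low cells had 79.6 and 80.7 CPM under FGF8+10 and 74.4 and 72.1 CPM under Mock (log2 0.13 ± 0.040, edgeR adjusted p = 0.0052). That call was lost without Mock Pdgfra-low replicate 2 (log2 0.11, adjusted p = 0.0683). To set different genes side by side, levels were divided by the length of all annotated exons of a gene. That length can exceed the mRNA the cells make, unevenly between genes, so shares and ranks across genes are approximate. Per kb of exon, SLC2A1 made up 17.0% ± 1.35 (SD, n = 2) of the sum of both carriers in FGF8+10 Pdgfra-positive cells and 55.6% ± 0.00488 in Mock Pdgfra-positive cells. In Pdgfra-low cells its share was 41.6% ± 0.335 under FGF8+10 and 78.2% ± 0.437 under Mock. The summed level of both carriers was 13.7 ± 0.129 CPM per kb in FGF8+10 Pdgfra-positive and 25.5 ± 0.145 in Mock Pdgfra-positive cells, and 22.6 ± 0.0790 in FGF8+10 Pdgfra-low and 55.2 ± 0.145 in Mock Pdgfra-low cells. By mRNA per kb on this length, the main carrier of the pair was thus SLC2A3 in both FGF8+10 groups and SLC2A1 in both Mock groups. No test of shares was made.

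Hexokinases trap glucose as glucose 6-phosphate. HK2, the form most often named as a hypoxia and growth-factor target, had 12.1 and 13.4 CPM in FGF8+10 Pdgfra-positive against 40.5 and 42.5 CPM in Mock Pdgfra-positive libraries. The Pdgfra-low libraries had 19.6 and 20.1 CPM under FGF8+10 against 54.4 and 54.5 CPM under Mock. No FGF8+10 library reached the lowest Mock library. HK2 was 3.25-fold lower in Pdgfra-positive cells (log2 -1.70 ± 0.066, edgeR adjusted p = 4.54e-26) and 2.74-fold lower in Pdgfra-low cells (log2 -1.46 ± 0.063, adjusted p = 1.69e-24).

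HK1, the broadly expressed hexokinase, moved the other way. It had 94.7 and 102 CPM in FGF8+10 Pdgfra-positive and 88.8 and 87.0 CPM in Mock Pdgfra-positive libraries (log2 0.16 ± 0.038, edgeR adjusted p = 0.000368). In Pdgfra-low cells it had 125 and 126 CPM under FGF8+10 and 81.1 and 78.0 CPM under Mock (log2 0.65 ± 0.037, adjusted p = 5.34e-20). Within each population, both FGF8+10 libraries were above both Mock libraries. HK2 made up 13.1% ± 0.244 of the pair per kb in FGF8+10 Pdgfra-positive and 35.4% ± 1.08 in Mock Pdgfra-positive cells. Its share was 15.6% ± 0.206 in FGF8+10 Pdgfra-low and 44.3% ± 0.668 in Mock Pdgfra-low cells. The sum of the pair ranged less, with 16.4 ± 0.875 and 21.6 ± 0.161 CPM per kb in FGF8+10 Pdgfra-positive and Pdgfra-low cells, beside 19.8 ± 0.0404 and 20.8 ± 0.309 in the same Mock populations.

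Phosphofructokinase catalyses the committed step of glycolysis and is built from platelet (PFKP), muscle (PFKM) and liver (PFKL) subunits. PFKP had 110 and 111 CPM in FGF8+10 Pdgfra-positive and 49.2 and 46.6 CPM in Mock Pdgfra-positive libraries. Pdgfra-low cells had 193 and 184 CPM under FGF8+10 and 65.5 and 66.2 CPM under Mock. Every FGF8+10 library was above every Mock library, 2.30-fold in Pdgfra-positive cells (log2 1.20 ± 0.039, edgeR adjusted p = 2.14e-29) and 2.86-fold in Pdgfra-low cells (log2 1.52 ± 0.036, adjusted p = 1.5e-34).

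PFKM ran opposite to PFKP. It had 101 and 95.6 CPM in FGF8+10 Pdgfra-positive and 160 and 158 CPM in Mock Pdgfra-positive libraries (log2 -0.70 ± 0.033, edgeR adjusted p = 6.49e-23). The Pdgfra-low libraries had 76.5 and 77.6 CPM under FGF8+10 and 169 and 166 CPM under Mock, which is 2.17-fold lower (log2 -1.12 ± 0.034, adjusted p = 1.12e-30). The groups did not overlap in either population. PFKL was also lower under FGF8+10, with 146 to 151 CPM in the 4 FGF8+10 libraries and 197 to 204 CPM in the 4 Mock libraries (log2 -0.44 ± 0.029 in Pdgfra-positive and -0.42 ± 0.029 in Pdgfra-low cells).

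The summed level of the 3 subunits changed less than its make-up. Per kb it was 44.3 ± 0.723 CPM in FGF8+10 Pdgfra-positive and 50.5 ± 0.179 in Mock Pdgfra-positive cells, and 51.6 ± 0.973 in FGF8+10 Pdgfra-low and 53.9 ± 0.479 in Mock Pdgfra-low cells. PFKP made up 32.0% ± 0.748 of it in FGF8+10 Pdgfra-positive and 12.2% ± 0.509 in Mock Pdgfra-positive cells, and 47.0% ± 0.706 in FGF8+10 Pdgfra-low and 15.7% ± 0.261 in Mock Pdgfra-low cells. PFKM made up 30.6% ± 0.634 in FGF8+10 Pdgfra-positive and 43.5% ± 0.444 in Mock Pdgfra-positive cells. In Pdgfra-low cells the PFKM share was 20.6% ± 0.612 under FGF8+10 and 42.8% ± 0.225 under Mock. PFKP was the most abundant subunit in FGF8+10 Pdgfra-low cells and the least abundant in both Mock groups.

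**Figure D2:**
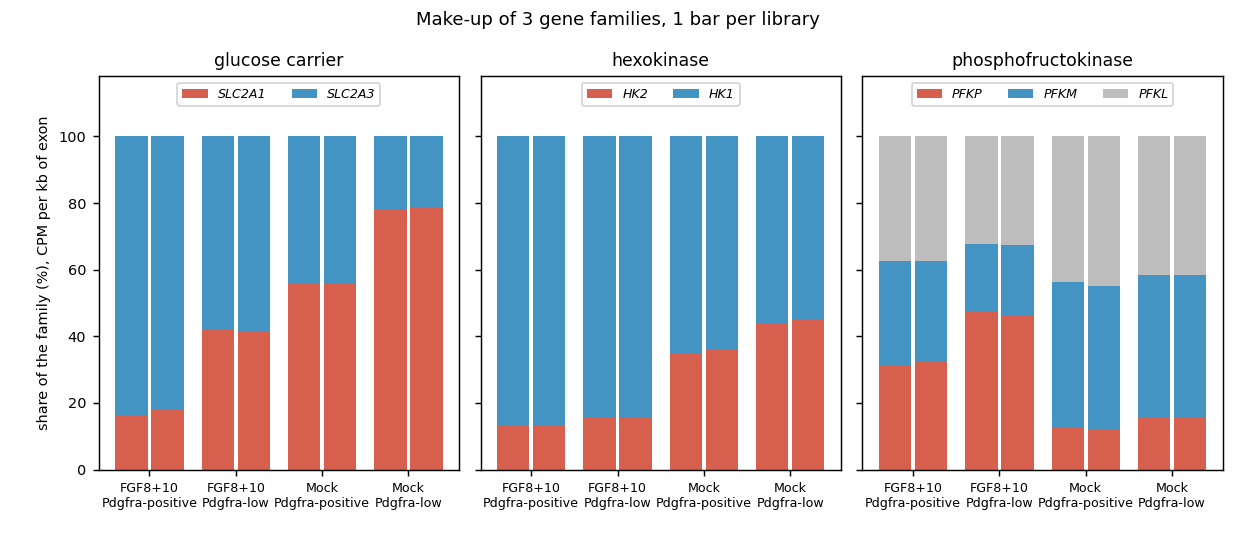
Share of each gene in its family (percent of summed CPM per kb of exon), 1 bar per library, for the glucose carriers, the hexokinases and the phosphofructokinase subunits. SLC2A1 and HK2 take smaller shares and PFKP a larger share in the FGF8+10 libraries than in the Mock libraries of the same population.

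GPI and TPI1 differed little between treatments, and ALDOC fell. GPI, which turns glucose 6-phosphate into fructose 6-phosphate, had 74.9 to 77.4 CPM in the FGF8+10 and 80.5 to 85.6 CPM in the Mock libraries. TPI1, which joins the triose branches, had 271 and 281 CPM in FGF8+10 Pdgfra-positive and 315 and 317 CPM in Mock Pdgfra-positive libraries. GPI and TPI1 were called lower in both populations under TMM, by log2 0.20 or less, but with library totals alone GPI was at log2 0.01 and 0.06 (edgeR adjusted p = 0.785 and 0.16) and TPI1 in Pdgfra-low cells was at 0.06 (adjusted p = 0.0325), a reversed sign. The TPI1 call in Pdgfra-positive cells was lost with library totals (log2 -0.02, adjusted p = 0.472). The GPI call in Pdgfra-low cells was also lost with DESeq2 (adjusted p = 0.0808), without FGF8+10 Pdgfra-low replicate 1 (adjusted p = 0.215) or Mock Pdgfra-low replicate 2 (adjusted p = 0.173). ALDOC, an aldolase form typical of brain, had 9.68 and 9.49 CPM in FGF8+10 Pdgfra-positive against 17.1 and 15.3 CPM in Mock Pdgfra-positive libraries. In Pdgfra-low cells it had 7.24 and 7.61 CPM under FGF8+10 against 13.5 and 14.4 CPM under Mock, so that it fell in both populations (log2 -0.76 ± 0.10 and -0.91 ± 0.10). ALDOA, the main aldolase of muscle and many other cells, had only 4.41 to 5.62 CPM and was not called. Over its exon bases, 54.2% overlap another annotated gene, where the authors' counting drops reads, so its level is understated by an unknown amount.

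In the later steps of the pathway, where ATP and NADH are made, most members were higher under FGF8+10 in Pdgfra-low cells. There 5 of the 6 were higher and 1 lower, while in Pdgfra-positive cells 2 were higher, 2 lower and 2 not called. Of all genes tested, 27.9% were higher and 27.7% lower in Pdgfra-low cells, and 25.8% and 25.1% in Pdgfra-positive cells, so that the split in Pdgfra-positive cells was near that of all genes. GAPDH, which makes 1,3-bisphosphoglycerate and NADH, was the most abundant member per kb. It had 1294 and 1298 CPM in FGF8+10 Pdgfra-positive and 985 and 953 CPM in Mock Pdgfra-positive libraries (log2 0.42 ± 0.021). Pdgfra-low cells had 1437 and 1452 CPM under FGF8+10 and 1088 and 1148 CPM under Mock (log2 0.37 ± 0.021). All 4 FGF8+10 libraries were above all 4 Mock libraries, although GAPDH is often taken as a constant reference gene.

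PKM, the pyruvate kinase gene whose splice forms M1 and M2 the table does not separate, had 471 and 460 CPM in FGF8+10 Pdgfra-positive and 353 and 352 CPM in Mock Pdgfra-positive libraries. The Pdgfra-low libraries had 762 and 753 CPM under FGF8+10 and 407 and 388 CPM under Mock. The rise was log2 0.40 ± 0.023 in Pdgfra-positive and 0.93 ± 0.023 in Pdgfra-low cells, and the difference of these effects was -0.53 ± 0.033 (edgeR adjusted p = 1.08e-17). FGF8+10 Pdgfra-low cells thus had the highest PKM of the 4 groups.

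ENO1, PGK1 and PGAM1 shared that high level in FGF8+10 Pdgfra-low cells. ENO1, the main enolase, had 752 and 764 CPM in FGF8+10 Pdgfra-positive and 808 and 787 CPM in Mock Pdgfra-positive libraries, and 1298 and 1294 CPM in FGF8+10 Pdgfra-low and 1017 and 1015 CPM in Mock Pdgfra-low libraries. The rise in Pdgfra-low cells was log2 0.35 ± 0.019. The fall in Pdgfra-positive cells was -0.07 ± 0.019 (edgeR adjusted p = 0.00148) but turned into a rise of 0.10 with library totals alone (adjusted p = 1.38e-05). That fall was not called without FGF8+10 Pdgfra-positive replicate 1 (log2 -0.05, adjusted p = 0.11) or Mock Pdgfra-positive replicate 1 (log2 -0.05, adjusted p = 0.0787). PGK1, a kinase that makes ATP, had 160 and 168 CPM in FGF8+10 Pdgfra-positive and 188 and 185 CPM in Mock Pdgfra-positive libraries, and 287 and 290 CPM in FGF8+10 Pdgfra-low and 240 and 238 CPM in Mock Pdgfra-low libraries. It was lower by log2 0.19 in Pdgfra-positive cells, a call lost with library totals alone (adjusted p = 0.634), and higher by 0.27 in Pdgfra-low cells. PGAM1, which shifts the phosphate of 3-phosphoglycerate, had 292 and 279 CPM in FGF8+10 Pdgfra-low and 239 CPM in both Mock Pdgfra-low libraries (log2 0.26 ± 0.026). ENO2, the enolase typical of neurons, stayed at 11.4 to 15.1 CPM in all libraries. It was called lower in Pdgfra-low cells (log2 -0.32 ± 0.095, adjusted p = 0.00343), but not with library totals alone (adjusted p = 0.152) or without Mock Pdgfra-low replicate 2 (adjusted p = 0.064).

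Pyruvate becomes lactate through LDHA, and the carriers SLC16A1 (MCT1) and SLC16A3 (MCT4) move lactate across the membrane. SLC16A1 had 191 and 194 CPM in FGF8+10 Pdgfra-positive and 90.2 and 86.2 CPM in Mock Pdgfra-positive libraries. In Pdgfra-low cells it had 295 and 311 CPM under FGF8+10 and 103 and 102 CPM under Mock. No libraries overlapped, and the rise was 2.19-fold in Pdgfra-positive (log2 1.13 ± 0.032, edgeR adjusted p = 1.71e-31) and 2.96-fold in Pdgfra-low cells (log2 1.56 ± 0.031, adjusted p = 8.02e-38).

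SLC16A3, the carrier best known for lactate export from glycolytic cells, fell. It had 28.0 and 25.3 CPM in FGF8+10 Pdgfra-positive and 34.4 and 34.3 CPM in Mock Pdgfra-positive libraries (log2 -0.37 ± 0.057). Pdgfra-low cells had 38.1 and 38.5 CPM under FGF8+10 and 74.2 and 75.6 CPM under Mock (log2 -0.97 ± 0.053). The fall was larger in Pdgfra-low cells, with a difference of 0.60 ± 0.078 (edgeR adjusted p = 2.31e-08). Per kb of exon, the level of SLC16A1 was 30.3 CPM in FGF8+10 Pdgfra-positive and 13.9 in Mock Pdgfra-positive cells, and 47.7 in FGF8+10 Pdgfra-low and 16.1 in Mock Pdgfra-low cells. The level of SLC16A3 per kb was 2.89 CPM in FGF8+10 Pdgfra-positive and 3.72 in Mock Pdgfra-positive cells, and 4.15 in FGF8+10 Pdgfra-low and 8.11 in Mock Pdgfra-low cells.

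LDHA differed between the populations in its response. It had 269 and 263 CPM in FGF8+10 Pdgfra-positive and 388 and 381 CPM in Mock Pdgfra-positive libraries (log2 -0.53 ± 0.024, edgeR adjusted p = 9.47e-24). The Pdgfra-low libraries had 514 and 508 CPM under FGF8+10 and 475 and 492 CPM under Mock (log2 0.08 ± 0.023, adjusted p = 0.00277). The small rise in Pdgfra-low cells was not called without Mock Pdgfra-low replicate 1 (log2 0.05, adjusted p = 0.114). The difference of the effects was -0.61 ± 0.033 (adjusted p = 1.16e-19). LDHB, the heart-type subunit, had 8.06 to 12.8 CPM and was not called between treatments, and 33.4% of its exon bases overlap another gene.

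The flux regulators stand outside the main chain. PFKFB3 and PFKFB4 make and break fructose 2,6-bisphosphate, the activator of phosphofructokinase. PFKFB3 had 41.6 and 44.7 CPM in FGF8+10 Pdgfra-positive and 34.1 and 33.3 CPM in Mock Pdgfra-positive libraries, and 56.4 and 53.4 CPM in FGF8+10 Pdgfra-low and 42.8 and 42.3 CPM in Mock Pdgfra-low libraries (log2 0.36 ± 0.055 and 0.37 ± 0.053). PFKFB4 ran the other way, with 10.9 to 12.8 CPM in the FGF8+10 and 15.3 to 18.1 CPM in the Mock libraries (log2 -0.51 ± 0.092 and -0.52 ± 0.091). PDK1, which blocks pyruvate dehydrogenase, had 22.9 and 22.1 CPM in FGF8+10 Pdgfra-positive and 29.3 and 31.8 CPM in Mock Pdgfra-positive libraries, and 28.8 and 26.9 CPM in FGF8+10 Pdgfra-low and 42.6 and 44.9 CPM in Mock Pdgfra-low libraries. It fell by log2 0.44 and 0.65.

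**Figure D3:**
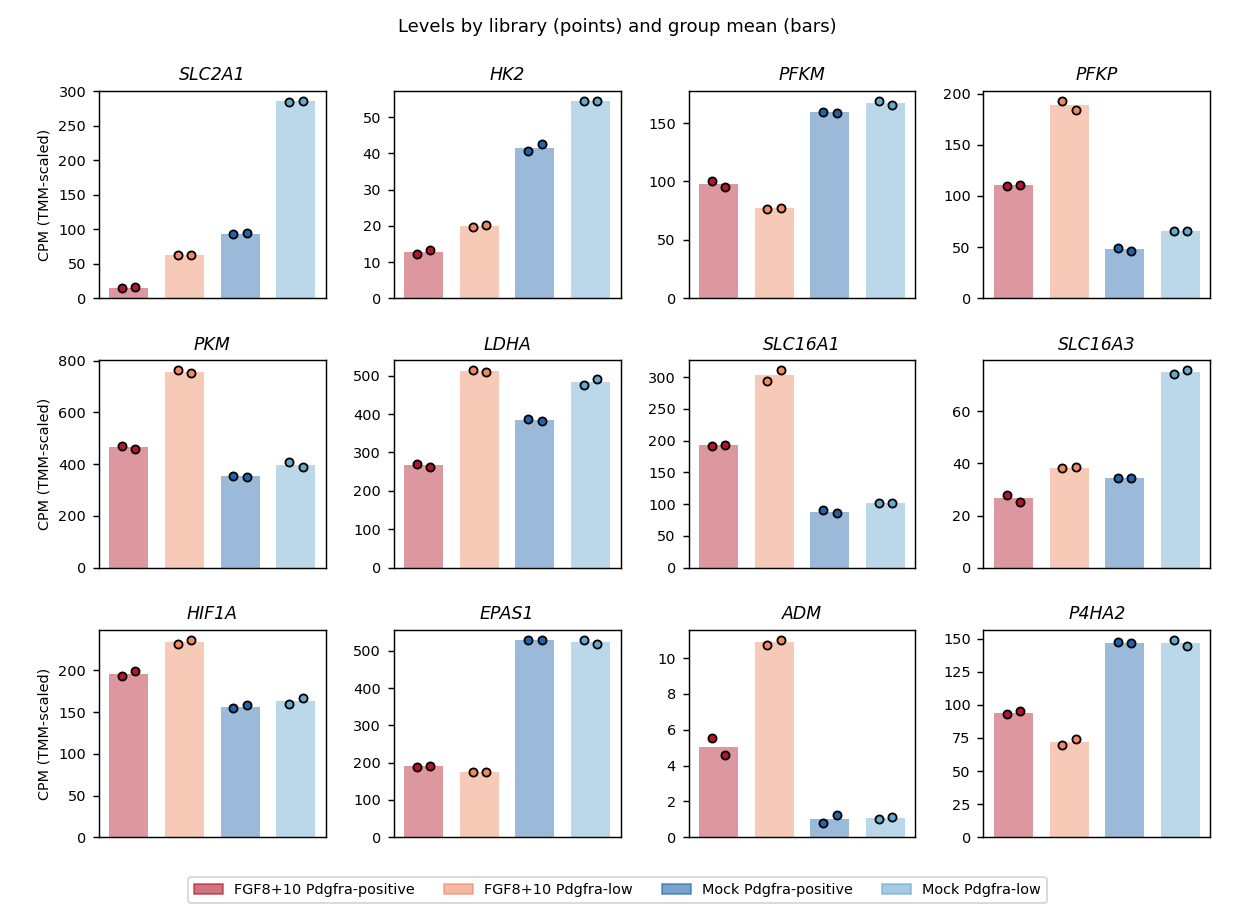
CPM of 12 members in each library (points) and the group mean (bars), with the FGF8+10 groups in red and the Mock groups in blue. SLC2A1, HK2 and EPAS1 are low and PFKP, SLC16A1 and ADM high in all FGF8+10 libraries relative to all Mock libraries.

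The genes of the 2 HIF alpha subunits moved in opposite directions. EPAS1, which encodes HIF2 alpha (GRCh38 chromosome 2, 46293667 to 46386697), had 188 and 192 CPM in FGF8+10 Pdgfra-positive against 530 and 528 CPM in Mock Pdgfra-positive libraries. In Pdgfra-low cells it had 174 and 176 CPM under FGF8+10 against 528 and 518 CPM under Mock. The fall was 2.79-fold in Pdgfra-positive (log2 -1.48 ± 0.024, edgeR adjusted p = 4.22e-41) and 2.99-fold in Pdgfra-low cells (log2 -1.58 ± 0.024, adjusted p = 3.29e-42), with no overlap between treatments.

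HIF1A had 193 and 199 CPM in FGF8+10 Pdgfra-positive and 155 and 158 CPM in Mock Pdgfra-positive libraries (log2 0.32 ± 0.029, edgeR adjusted p = 3.84e-13). Pdgfra-low cells had 232 and 237 CPM under FGF8+10 and 160 and 167 CPM under Mock (log2 0.52 ± 0.029, adjusted p = 2.29e-20). Per kb of exon, EPAS1 was below HIF1A in both FGF8+10 groups, at 26.0 and 38.1 CPM in FGF8+10 Pdgfra-positive and 24.0 and 45.5 CPM in FGF8+10 Pdgfra-low cells. In the Mock groups EPAS1 was above HIF1A, at 72.6 and 30.4 CPM in Mock Pdgfra-positive and 71.7 and 31.8 CPM in Mock Pdgfra-low cells. EGLN1, the main prolyl hydroxylase that marks HIF alpha, had 9.76 to 12.7 CPM and was not called, with 55.8% of its exon bases shared with another gene. EGLN3, a hydroxylase gene that HIF itself induces in many cells, had 0.622 to 2.40 CPM. It was called higher in Pdgfra-low cells (log2 0.81 ± 0.33, edgeR adjusted p = 0.0331), a call that was lost without FGF8+10 Pdgfra-low replicate 1 (log2 0.34, adjusted p = 0.533) or Mock Pdgfra-low replicate 1 (log2 0.51, adjusted p = 0.303), and with DESeq2 (adjusted p = 0.0743).

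The 9 hypoxia response genes did not move as a block. In Pdgfra-positive cells 2 were higher, 4 lower and 3 not called, and in Pdgfra-low cells 1 was higher, 4 lower and 4 not called, with medians of log2 -0.42 and -0.41. The median in Pdgfra-low cells was the value of CA9, at means of 0.170 CPM under FGF8+10 and 0.223 CPM under Mock. CA9 was near the floor of counts, so that median says little. Over all genes tested, 25.8% were higher and 25.1% lower in Pdgfra-positive cells, and 27.9% and 27.7% in Pdgfra-low cells. Only the share called lower was above that of all genes. ADM encodes adrenomedullin, a vasoactive peptide and a classical HIF target. It had 5.54 and 4.58 CPM in FGF8+10 Pdgfra-positive against 0.784 and 1.27 CPM in Mock Pdgfra-positive libraries, and 10.73 and 11.02 CPM in FGF8+10 Pdgfra-low libraries against 1.02 and 1.12 CPM in Mock Pdgfra-low libraries. All 4 FGF8+10 libraries were above all 4 Mock libraries. The rise was 4.90-fold in Pdgfra-positive (log2 2.29 ± 0.20, edgeR adjusted p = 2.16e-13) and 10.1-fold in Pdgfra-low cells (log2 3.34 ± 0.19, adjusted p = 4.06e-20). The difference of the effects was -1.05 ± 0.29 (adjusted p = 0.00496), but without Mock Pdgfra-positive replicate 2 it was -0.65 (adjusted p = 0.217).

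P4HA1 and P4HA2 encode the catalytic subunits of collagen prolyl 4-hydroxylase. P4HA1 had 209 and 213 CPM in FGF8+10 Pdgfra-positive and 361 and 358 CPM in Mock Pdgfra-positive libraries, and 229 and 233 CPM in FGF8+10 Pdgfra-low and 450 CPM in both Mock Pdgfra-low libraries (log2 -0.77 ± 0.024 and -0.96 ± 0.024). P4HA2 had 93.1 and 95.2 CPM in FGF8+10 Pdgfra-positive and 147 CPM in both Mock Pdgfra-positive libraries (log2 -0.64 ± 0.034, edgeR adjusted p = 5.05e-21). In Pdgfra-low cells P4HA2 had 70.0 and 73.9 CPM under FGF8+10 and 149 and 145 CPM under Mock (log2 -1.03 ± 0.035, adjusted p = 1.46e-28). Both genes fell in both populations with no overlap of libraries.

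BNIP3 and BNIP3L encode related receptors for the removal of mitochondria by autophagy and moved apart. BNIP3 had 68.5 and 68.3 CPM in FGF8+10 Pdgfra-positive and 91.5 and 91.2 CPM in Mock Pdgfra-positive libraries, and 74.9 and 73.1 CPM in FGF8+10 Pdgfra-low and 108 and 102 CPM in Mock Pdgfra-low libraries (log2 -0.42 ± 0.039 and -0.50 ± 0.039). BNIP3L had 237 and 242 CPM in FGF8+10 Pdgfra-positive and 188 and 187 CPM in Mock Pdgfra-positive libraries (log2 0.35 ± 0.027), and was not called in Pdgfra-low cells, at 201 and 200 CPM under FGF8+10 and 195 and 193 CPM under Mock. NDRG1, a stress-responsive gene, had 12.9 and 12.1 CPM in FGF8+10 Pdgfra-positive and 19.8 and 21.2 CPM in Mock Pdgfra-positive libraries, and 24.6 and 23.0 CPM in FGF8+10 Pdgfra-low and 39.5 and 40.0 CPM in Mock Pdgfra-low libraries (log2 -0.71 ± 0.076 and -0.74 ± 0.069). KDM3A, a histone demethylase gene, stayed at 113 to 123 CPM and was not called. ANKRD37 had 1.13 to 1.92 CPM and was not called, with 40.3% of its exon bases shared with UFSP2. CA9, the carbonic anhydrase often read as a marker of low oxygen, had 0 to 0.340 CPM, where 6 counts in 1 library (3 read pairs, the limit that a count of 0 allows) are 0.0883 to 0.134 CPM. No difference in CA9 was detectable at this depth.

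Between the sorted populations, members were more often lower in Pdgfra-positive than in Pdgfra-low cells. Under FGF8+10, 7 were higher, 23 lower and 7 not called, against 41.4% of all genes tested called (19.6% higher, 21.7% lower). Under Mock, 1 was higher, 18 lower and 18 not called, against 25.8% of all genes (12.4% higher, 13.4% lower). The median log2 fold change of the members, Pdgfra-positive over Pdgfra-low, was -0.32 under FGF8+10 and -0.20 under Mock, beside 0.01 and 0.02 over all genes. These populations were defined by PDGFRA, and the treatments share no library in this pair of comparisons.

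The same 18 genes were lower in Pdgfra-positive cells under both treatments, as were 8.66% of all genes tested. Among the 18 were SLC2A1, PGK1, ENO1, PKM, LDHA, SLC16A1, SLC16A3 and NDRG1. SLC2A1 was lower by log2 2.02 under FGF8+10 and 1.61 under Mock. LDHA was lower by 0.94 and 0.33, PGK1 by 0.82 and 0.36, ENO1 by 0.77 and 0.35, and PKM by 0.70 and 0.17. SLC16A3 was lower by 0.52 under FGF8+10 and 1.12 under Mock, and NDRG1 by 0.93 and 0.96. In contrast, PFKM, ALDOC, ENO2, EPAS1, BNIP3L, P4HA2 and KDM3A were higher in Pdgfra-positive cells under FGF8+10 and not called under Mock. Of these, PFKM had log2 0.35 ± 0.034, P4HA2 0.39 ± 0.035 and BNIP3L 0.25 ± 0.027. The ENO2 call was lost without FGF8+10 Pdgfra-positive replicate 2 (edgeR adjusted p = 0.0799) or FGF8+10 Pdgfra-low replicate 1 (adjusted p = 0.0687), and the KDM3A call (log2 0.08) was lost without any 1 of the 4 FGF8+10 libraries (adjusted p = 0.0921 to 0.2) and with DESeq2 (adjusted p = 0.14). Within the 18, the LDHB call under Mock was lost without any 1 of the 4 Mock libraries (adjusted p = 0.057 to 0.102). The BNIP3 call under FGF8+10 (log2 -0.11) was lost without either FGF8+10 Pdgfra-positive library or FGF8+10 Pdgfra-low replicate 1 (adjusted p = 0.0699 to 0.144). HK1 was lower in Pdgfra-positive cells under FGF8+10 (log2 -0.35 ± 0.037) and higher under Mock (0.14 ± 0.039). Its call under Mock was lost without Mock Pdgfra-low replicate 2 (log2 0.11, edgeR adjusted p = 0.0886). ADM was lower in Pdgfra-positive cells under FGF8+10 (log2 -1.10 ± 0.16), while its libraries overlapped under Mock.

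**Figure D4:**
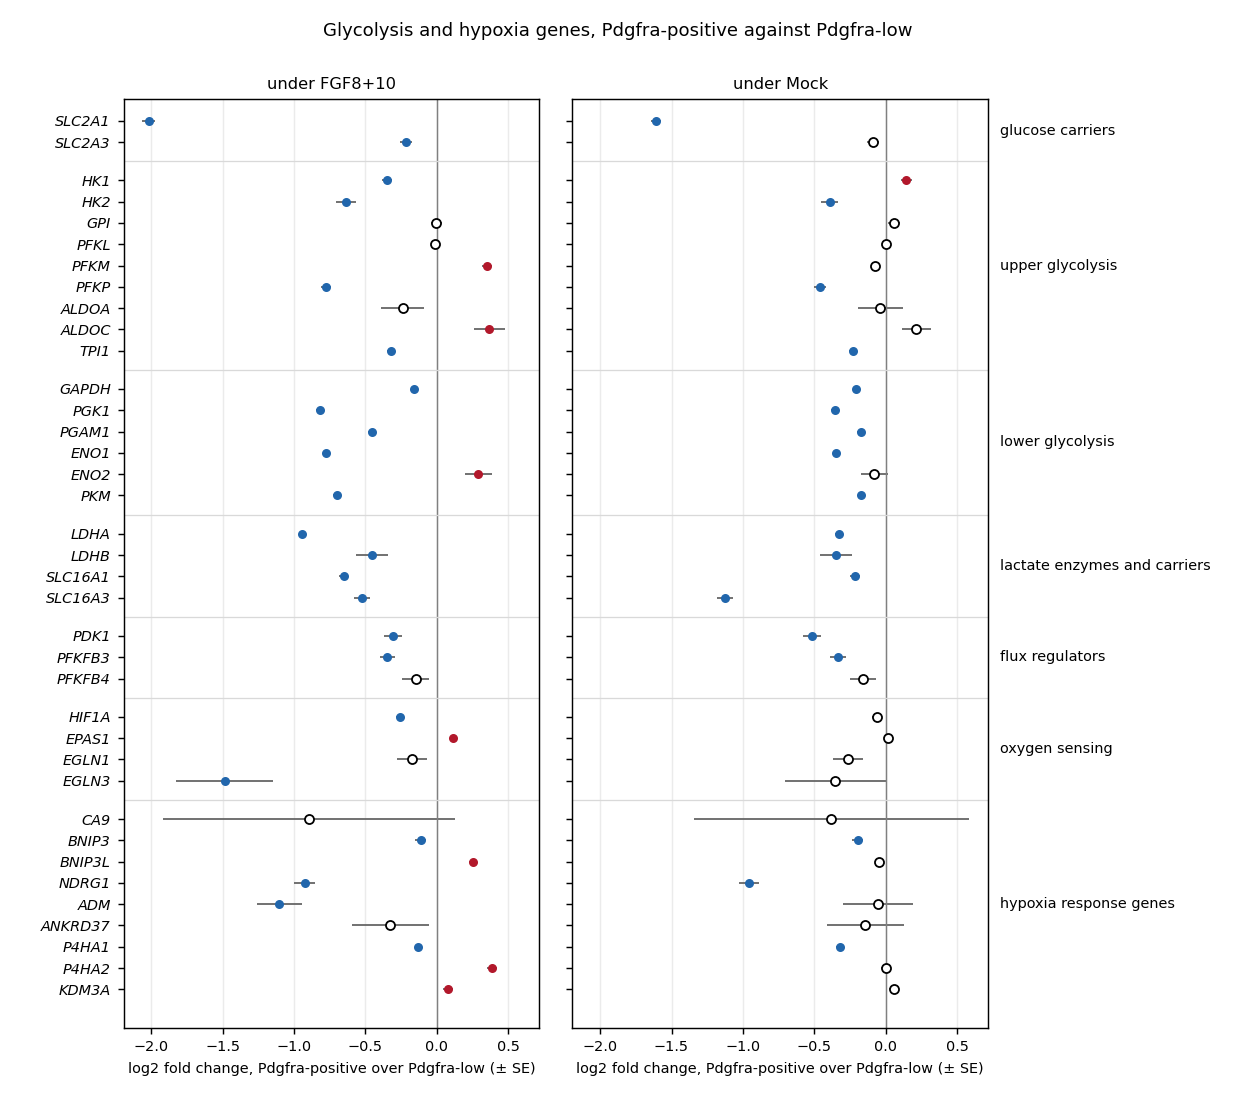
Log2 fold change of each of the 37 members, Pdgfra-positive over Pdgfra-low cells, under FGF8+10 (left) and under Mock (right), with bars of 1 SE; red is called higher, blue called lower and open not called. Most glycolytic genes lie left of 0 in both panels, and SLC2A1 lies furthest left, at -2.02 and -1.61.

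The response to FGF8+10 differed between the populations for 20 of the 37 members, 7 with a higher and 13 with a lower log2 fold change in Pdgfra-positive cells, where 26% of all genes tested differed (12% higher, 14% lower). Of the members with a lower value, LDHA, PKM, HK1, PGK1, SLC16A1, ENO1 and SLC2A1 had differences of -0.61 to -0.41 and ADM of -1.05. SLC16A3 and PFKM had the largest differences in the other direction, at 0.60 and 0.42, followed by P4HA2 at 0.39. The summed level of the endothelial markers rose in both populations, with more of them called higher in Pdgfra-low cells. All 10 endothelial markers were higher in FGF8+10 than in Mock Pdgfra-low cells, while in Pdgfra-positive cells 5 were higher and 2 lower. Over all genes tested, 27.9% were higher in Pdgfra-low cells, and 25.8% were higher and 25.1% lower in Pdgfra-positive cells. The summed endothelial level was 2130 to 2139 CPM in FGF8+10 Pdgfra-positive, 2575 to 2581 CPM in FGF8+10 Pdgfra-low, 1330 to 1343 CPM in Mock Pdgfra-positive and 1363 to 1371 CPM in Mock Pdgfra-low libraries, most of it KDR, which mesoderm also expresses. PECAM1, which is more specific, had 2.09 and 3.11 CPM in FGF8+10 Pdgfra-positive and 19.4 and 17.5 CPM in FGF8+10 Pdgfra-low libraries, and 0.645 to 0.986 CPM in the Mock libraries.

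Other marker lists moved too. The 8 epithelial markers, led by KRT8 and KRT19, summed to 472 to 475 CPM in FGF8+10 Pdgfra-positive, 1294 to 1303 CPM in FGF8+10 Pdgfra-low, 667 to 668 CPM in Mock Pdgfra-positive and 1132 to 1138 CPM in Mock Pdgfra-low libraries, while EPCAM stayed at 0.498 to 1.10 CPM. The 10 cardiac markers summed to 13.1 to 25.0 CPM in the FGF8+10 libraries and 146 to 156 CPM in the Mock libraries, most of it TNNI1 and TNNT2, and MYH6 was at 0 in 4 of the libraries. The 6 neural markers summed to 2.38 to 11.4 CPM in 6 libraries and to 130 CPM in the Mock Pdgfra-low libraries, where STMN2 alone had 129 CPM in each. The 6 blood markers summed to 0.355 to 2.28 CPM, with HBE1 at 0 in all libraries. The 7 pluripotency markers summed to 219 to 287 CPM in the FGF8+10 libraries and 107 to 136 CPM in the Mock libraries, most of it LIN28A and DPPA4 under FGF8+10. LIN28A, an RNA-binding protein gene, rose to 143 and 149 CPM in FGF8+10 Pdgfra-positive, against 39.3 and 36.0 CPM in Mock Pdgfra-positive libraries, and it had 218 CPM in both FGF8+10 Pdgfra-low and 43.1 and 40.4 CPM in Mock Pdgfra-low libraries. The defining markers POU5F1 and NANOG were at 0.102 CPM or less and 0.0493 CPM or less. The part of these cells in the members' values was not tested.

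Genes around the members were read from 6 lists, to be set against the 25.8% of all genes called higher and 25.1% called lower in Pdgfra-positive cells and the 27.9% and 27.7% in Pdgfra-low cells. Other isozymes and carriers of glycolysis and glycogen fell more often than they rose: of 25 tested, 4 were higher and 12 lower in Pdgfra-positive cells (median log2 -0.22) and 5 higher and 13 lower in Pdgfra-low cells (median -0.26). PCK2, the mitochondrial enzyme that makes phosphoenolpyruvate, had 23.0 and 20.9 CPM in FGF8+10 Pdgfra-positive and 60.3 and 63.7 CPM in Mock Pdgfra-positive libraries, and 26.5 and 24.3 CPM in FGF8+10 Pdgfra-low and 83.8 and 82.8 CPM in Mock Pdgfra-low libraries (log2 -1.50 ± 0.056 and -1.71 ± 0.055). SLC2A4, the insulin-responsive carrier GLUT4, also fell in both populations but was low throughout, at 0.113 to 0.237 CPM under FGF8+10 and 0.509 to 1.33 CPM under Mock (log2 -2.42 ± 0.50 and -2.21 ± 0.54). SLC16A7, the monocarboxylate carrier MCT2, had 1.38 and 1.87 CPM in FGF8+10 Pdgfra-positive and 4.10 and 4.81 CPM in Mock Pdgfra-positive libraries (log2 -1.46 ± 0.19), and it was lower by log2 0.75 in Pdgfra-low cells. SLC2A6, the carrier GLUT6, rose in Pdgfra-low cells, with 29.3 and 30.1 CPM under FGF8+10 and 9.59 and 7.82 CPM under Mock (log2 1.77 ± 0.092). In Pdgfra-positive cells SLC2A6 was higher by log2 0.25, a call lost without FGF8+10 Pdgfra-positive replicate 1 (log2 0.21, edgeR adjusted p = 0.134) or Mock Pdgfra-positive replicate 2 (log2 0.19, adjusted p = 0.181). FBP1, a gluconeogenic phosphatase gene, was at 0.0189 and 0.153 CPM in FGF8+10 Pdgfra-low and 0.427 and 0.347 CPM in Mock Pdgfra-low libraries (log2 -2.11 ± 0.81, edgeR adjusted p = 0.0253). Its call was lost without FGF8+10 Pdgfra-low replicate 1 (log2 -1.32, adjusted p = 0.213) or Mock Pdgfra-low replicate 1 (log2 -1.95, adjusted p = 0.105), and its value was -4.21 without FGF8+10 Pdgfra-low replicate 2.

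Other hypoxia response genes outside the 37 were also mixed. Of 32 tested, 7 were higher and 17 lower in Pdgfra-positive cells (median log2 -0.20), and 9 were higher and 17 lower in Pdgfra-low cells (median -0.31). The share called higher was near that of all genes tested in both populations, and the share called lower was above it. TFRC, the transferrin receptor gene, had 35.8 and 34.4 CPM in FGF8+10 Pdgfra-positive and 271 and 276 CPM in Mock Pdgfra-positive libraries, and 94.4 and 91.7 CPM in FGF8+10 Pdgfra-low and 321 and 331 CPM in Mock Pdgfra-low libraries (log2 -2.96 ± 0.033 and -1.81 ± 0.030). VEGFA, the vascular growth factor gene, had 32.6 and 32.5 CPM in FGF8+10 Pdgfra-low and 606 and 580 CPM in Mock Pdgfra-low libraries (log2 -4.19 ± 0.032). CA12, a membrane carbonic anhydrase gene, had 0.977 and 1.12 CPM in FGF8+10 Pdgfra-positive and 2.42 and 2.74 CPM in Mock Pdgfra-positive libraries, and 0.962 and 0.887 CPM in FGF8+10 Pdgfra-low and 38.3 and 42.4 CPM in Mock Pdgfra-low libraries. LOX, which crosslinks collagen and elastin, stood on the other side, with 253 and 263 CPM in FGF8+10 Pdgfra-positive and 38.9 and 39.1 CPM in Mock Pdgfra-positive libraries, and 289 and 291 CPM in FGF8+10 Pdgfra-low and 40.0 and 39.2 CPM in Mock Pdgfra-low libraries (log2 2.73 ± 0.034 and 2.87 ± 0.033). LOX and ADM rose while VEGFA, SLC2A1 and TFRC fell, so genes listed together as hypoxia responses lay on both sides.

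The remaining oxygen sensing genes changed by less than 2-fold. Of 12 tested, 7 were higher and 2 lower in Pdgfra-positive cells and 3 were higher and 4 lower in Pdgfra-low cells. All genes tested stood at 25.8% higher and 25.1% lower in Pdgfra-positive cells, and 27.9% and 27.7% in Pdgfra-low cells. The share called higher in Pdgfra-low cells was thus near that of all genes. CUL2, the scaffold of the VHL ubiquitin ligase, was higher by log2 0.44 and 0.73. ARNT2, a dimer partner of HIF alpha in neural tissue, was lower by 0.58 and 0.64. NAA10, an acetyltransferase gene, was higher in Pdgfra-positive cells by 0.33, a call lost without Mock Pdgfra-positive replicate 1 (log2 0.27, edgeR adjusted p = 0.0815). USP20, a deubiquitinase gene, was lower by 0.23 and 0.48, and the first of these calls was lost with library totals alone (adjusted p = 0.495) and without FGF8+10 Pdgfra-positive replicate 2 (log2 -0.13, adjusted p = 0.204).

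**Figure D5:**
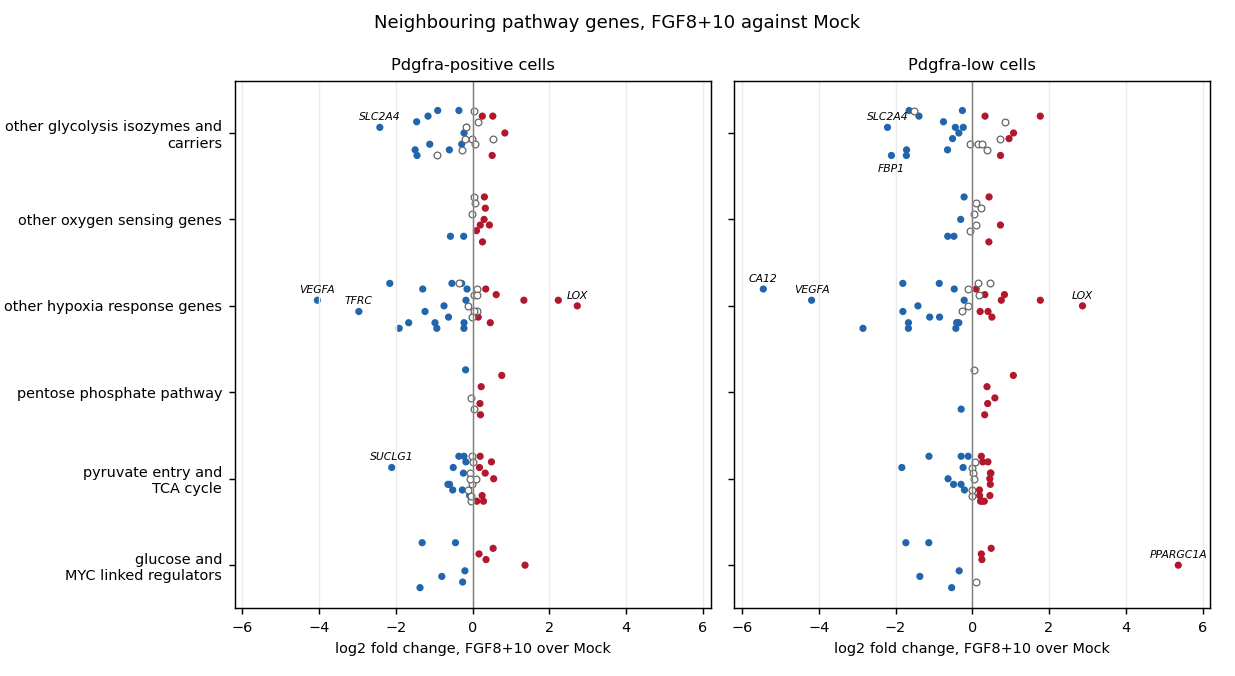
Log2 fold change, FGF8+10 over Mock, of the tested genes of 6 neighbouring lists in Pdgfra-positive (left) and Pdgfra-low cells (right), 1 point per gene; red is called higher, blue called lower and open not called, and names mark genes described in the text that changed at least 4-fold. VEGFA at -4.04 and -4.19 and LOX at 2.73 and 2.87 lie far apart in both panels.

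The pentose phosphate pathway branches off at glucose 6-phosphate. Of 7 genes tested from it, 4 were higher and 1 lower in Pdgfra-positive cells and 5 higher and 1 lower in Pdgfra-low cells. The shares of all genes tested were 25.8% higher and 25.1% lower in Pdgfra-positive cells, and 27.9% and 27.7% in Pdgfra-low cells. RPIA, which makes ribose 5-phosphate, had 14.8 and 15.0 CPM in FGF8+10 Pdgfra-positive and 8.47 and 9.09 CPM in Mock Pdgfra-positive libraries, and 20.6 and 21.4 CPM in FGF8+10 Pdgfra-low and 9.89 and 10.2 CPM in Mock Pdgfra-low libraries (log2 0.76 ± 0.096 and 1.07 ± 0.092). TKT, a transketolase gene, TALDO1, a transaldolase gene, and RPE, an epimerase gene, were higher in both populations, by log2 0.19 to 0.40. PRPS1, which makes the precursor of nucleotides from ribose 5-phosphate, was higher in Pdgfra-low cells by 0.59.

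Of 28 genes of pyruvate entry and the TCA cycle, 8 were higher and 11 lower in Pdgfra-positive cells and 13 higher and 9 lower in Pdgfra-low cells. All genes tested stood at 25.8% higher and 25.1% lower in Pdgfra-positive cells, and 27.9% and 27.7% in Pdgfra-low cells. The shares called higher in Pdgfra-positive cells and lower in Pdgfra-low cells were near those of all genes. SUCLG1, the alpha subunit of succinyl-CoA ligase, stood apart with 51.2 and 49.3 CPM in FGF8+10 Pdgfra-positive and 219 and 214 CPM in Mock Pdgfra-positive libraries, and 59.3 and 63.2 CPM in FGF8+10 Pdgfra-low and 216 and 222 CPM in Mock Pdgfra-low libraries (log2 -2.11 ± 0.035 and -1.84 ± 0.034). The mitochondrial pyruvate carrier gene MPC2 was lower by log2 0.64 and 0.49. PDP2, a phosphatase that activates pyruvate dehydrogenase, was lower by 0.60 and 0.29, and the second of these calls was lost with library totals alone (edgeR adjusted p = 0.164) and without FGF8+10 Pdgfra-low replicate 1 (log2 -0.21, adjusted p = 0.0756). PDK4 and PDK2, which block pyruvate dehydrogenase as PDK1 does, were lower in Pdgfra-low cells by 1.13 and 0.63 and not called in Pdgfra-positive cells.

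Of 10 tested regulators linked to glucose and MYC, 4 were higher and 6 lower in Pdgfra-positive cells and 4 higher and 5 lower in Pdgfra-low cells. The shares of all genes tested were 25.8% higher and 25.1% lower in Pdgfra-positive cells, and 27.9% and 27.7% in Pdgfra-low cells. MYC, a transcription factor known to raise glycolytic genes, had 25.1 CPM in both FGF8+10 Pdgfra-positive and 63.8 and 66.0 CPM in Mock Pdgfra-positive libraries, and 35.8 and 33.0 CPM in FGF8+10 Pdgfra-low and 48.1 and 51.9 CPM in Mock Pdgfra-low libraries (log2 -1.37 ± 0.056 and -0.54 ± 0.055). ARRDC4, an arrestin gene induced by glucose through MLX factors, was lower by log2 1.31 and 1.73, and MYCN by 0.80 and 1.37. PPARGC1A, a coactivator of mitochondrial genes, had 0.607 and 0.618 CPM in FGF8+10 Pdgfra-positive and 0.179 and 0.291 CPM in Mock Pdgfra-positive libraries, and 3.30 and 3.67 CPM in FGF8+10 Pdgfra-low and 0.0657 and 0.0992 CPM in Mock Pdgfra-low libraries. The call for PPARGC1A in Pdgfra-positive cells (log2 1.37 ± 0.42, edgeR adjusted p = 0.00504) was lost without Mock Pdgfra-positive replicate 1 (log2 1.07, adjusted p = 0.0791).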

How the data were processed

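For the 8 libraries the authors deposited raw counts in 1 table keyed by gene name. The submitters' processing notes name FastQC 0.11.8 for read quality, HISAT2 2.1.0 as aligner and GRCh38 as genome. The counter was featureCounts 2.0.3 with GENCODE release 42, per the file headers, run without strand and with each mate of a read pair counted on its own. Its recorded options leave out reads over several genes and reads with several alignments, so genes with overlapping neighbours or near-identical copies are undercounted. For trimming, no method is given in the sources used here.

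The tests used edgeR 4.0.16 in R 4.3.3. Of 39416 genes with any count, 22554 passed filterByExpr, and 1 quasi-likelihood model with a mean per group (TMM scaling, 4 residual degrees of freedom) gave 5 two-sided contrasts, each adjusted by Benjamini-Hochberg. The common biological coefficient of variation was 4.06%. CPM and log2 fold changes were computed here from the deposited counts. The procedure was tested on data simulated from the fitted spread with few genes changed, which cannot probe the dependence on scaling. Alternatives were DESeq2 1.42.0, RLE size factors, library totals, no filter, a replicate block, only the 4 libraries compared, pseudogene counts added, and leaving out each library. The floor given for CA9 covers counting error only, while the SEs and SDs also hold the spread between these libraries. The 37 MT genes had no counts and were not used. There were 0 unused sample columns. Promoter sequences and coordinates are from RefSeq (GRCh38.p14) for windows and GENCODE gene spans for GRCh38.

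The members and lists were chosen with earlier results of these data known. Values in every library are given for members changed at least 2-fold by FGF8+10, the leading isozyme of each family, HIF1A and EPAS1, and further members for completeness. From each neighbouring list the 3 genes with the largest called change in either population are named. Of the genes in those lists, 2 are not reported here, and the counts leave them out. Because of the prior count, fold changes of genes near 0 CPM understate the change.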

Additional observations from a re-analysis of the deposited data

Results flagged for a closer look

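For 20 members the effect of FGF8+10 differed between Pdgfra-positive and Pdgfra-low cells in edgeR's test of that difference (log2, Pdgfra-positive minus Pdgfra-low). Among glycolytic genes and carriers it was negative for LDHA (-0.61), PKM (-0.53), HK1 (-0.49), PGK1 (-0.46), SLC16A1 (-0.44), ENO1 (-0.42), SLC2A1 (-0.41), PFKP (-0.31), PGAM1 (-0.28), HK2 (-0.24) and TPI1 (-0.0938). It was positive for SLC16A3 (0.60), PFKM (0.42) and ENO2 (0.37). Among oxygen sensing and hypoxia response genes it was negative for ADM (-1.05) and HIF1A (-0.19) and positive for P4HA2 (0.39), BNIP3L (0.30), P4HA1 (0.19) and EPAS1 (0.10). The calls of HK2, TPI1, ENO2, EPAS1 and ADM were lost when a single library was left out. Some of their estimates barely moved, as for EPAS1 without FGF8+10 Pdgfra-positive replicate 2 (log2 0.10). The HK2 difference lost its call without any of 6 of the 8 libraries, with DESeq2 (adjusted p = 0.0527) and with no filter on low counts (adjusted p = 0.0891), and was -0.16 without FGF8+10 Pdgfra-positive replicate 1 (adjusted p = 0.316). The TPI1 difference lost it without any of 7 of the 8 and was -0.05 without FGF8+10 Pdgfra-positive replicate 1 (adjusted p = 0.398) and -0.06 without FGF8+10 Pdgfra-low replicate 2 (adjusted p = 0.368). ENO2 lost it without FGF8+10 Pdgfra-positive replicate 2, FGF8+10 Pdgfra-low replicate 1, Mock Pdgfra-positive replicate 1 or Mock Pdgfra-low replicate 2 (adjusted p = 0.0773 to 0.144). EPAS1 lost it without FGF8+10 Pdgfra-positive replicate 2 (adjusted p = 0.0528) or Mock Pdgfra-low replicate 1 (adjusted p = 0.0855), and ADM without Mock Pdgfra-positive replicate 2 (-0.65, adjusted p = 0.217).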

How the results depend on the processing

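Over the called values of members and named neighbours, 175 in all, 25 lost their call with an unchanged sign under at least 1 alternative. The sign reversed for 4 values, all with library totals alone. GPI went to 0.0148 in Pdgfra-positive and 0.0646 in Pdgfra-low cells, TPI1 to 0.0596 in Pdgfra-low cells and ENO1 to 0.10 in Pdgfra-positive cells (log2). GPI in Pdgfra-low and ENO1 in Pdgfra-positive cells are in both numbers. Library totals alone raised the members higher under FGF8+10 in Pdgfra-positive cells to 14. Without 1 library at a time, the members higher and lower under FGF8+10 were 9 and 17 to 18 in Pdgfra-positive cells, and 12 to 14 and 14 to 16 in Pdgfra-low cells. Pdgfra-positive over Pdgfra-low, they were 5 to 7 and 21 to 23 under FGF8+10, and 0 to 1 and 17 to 20 under Mock, where HK1 alone was higher. The difference of effects was called higher for 5 to 8 and lower for 10 to 13. The replicate numbers are shared between groups, and the labels do not say whether same-numbered libraries are paired. Same-numbered deviations correlated at -0.0122 to 0.0188 over the pairs of groups. Noise at low counts can hide a shared origin in such correlations, so pairing stays unknown. With the number as a replicate block, 9 members were higher and 18 lower in Pdgfra-positive cells and 14 higher and 16 lower in Pdgfra-low cells, and no other call named here changed. Without length correction, the share of PFKP was 30.9% and 45.4% in FGF8+10 Pdgfra-positive and Pdgfra-low and 15.2% in Mock Pdgfra-low cells. That of HK2 was 11.5% and 13.7% in FGF8+10 Pdgfra-positive and Pdgfra-low and 32.1% and 40.6% in the same Mock populations. That of SLC2A1 was 43.7% in FGF8+10 Pdgfra-low, 57.7% in Mock Pdgfra-positive and 79.6% in Mock Pdgfra-low cells. With only exon bases free of other genes counted as length, an alternative chosen after seeing the data, SLC2A1 was at 43.6%, 57.5% and 79.5% in the same groups, and with pseudogene counts added at 55.5% in Mock Pdgfra-positive cells. These moves in share follow by calculation from the length or the counts used. None of these settings uses the length of the mRNA made, which was not measured. The cause of the other moves was not tested. Depth limits CA9 and EGLN3, and reads dropped over overlapping genes limit ALDOA, LDHB, EGLN1, ANKRD37 and CA9. Reads dropped for several alignments may also limit members with many pseudogenes, such as GAPDH (65) and BNIP3 (39). Adding pseudogene counts cannot recover those reads.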
